A study of Mus musculus with 8 samples.

Results

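The T cell receptor beta V segments are the genes whose symbol begins Trbv. The deposited expression tables hold 35 of them among 32285 genes, and all 35 are described here in T cells of mouse lymph nodes. The samples are deep cervical lymph nodes of wild-type C57BL/6 mice taken on day 20 after an intracranial injection. In the saline control group the injection was DPBS, a buffered saline, and the labels name no antibody for it. In the other groups it was GL261, a mouse glioma line. The isotype group received a control IgG and the anti-CTLA-4 group an antibody against CTLA-4, a receptor that restrains T cells. The depleted isotype and depleted anti-CTLA-4 groups received the same antibodies together with anti-CD20, which removes B cells. Live immune cells were sorted and run on the 10x Genomics 5' assay, with 1 expression library per group. How many mice each library pools is not given in the sources used here, so conditions are compared as libraries, while T cell subsets can be compared across the 5 libraries. Values said to be in library order run from saline control through isotype and anti-CTLA-4 to the depleted pair, its isotype library first.

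Each developing T cell joins a V, a D and a J segment into a beta chain gene, and this chain pairs with an alpha chain to recognise peptide on an MHC molecule. The V segment encodes the start of the chain, including loops that contact the MHC molecule. A mature T cell therefore mostly expresses a single productive V segment, and the shares of segments over many cells describe the repertoire. CD8 T cells recognise MHC class I, while conventional CD4 T cells and regulatory T cells (Treg cells, which suppress responses and carry the factor Foxp3) recognise MHC class II.

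The libraries held 9014 to 11791 barcodes and 54715065 to 63497466 UMIs (unique molecular identifiers, each standing for a captured transcript). After filters 45115 cells remained, of which 28881 were T cells, defined by a UMI of Cd3d, Cd3e or Cd3g and none of Cd79a. T cells made up 44.1% to 46.5% of kept cells in the 3 libraries with B cells and 95.2% to 95.5% in the 2 depleted libraries. A Cd8b1 UMI defined 12481 CD8 cells, a Cd4 UMI without Foxp3 defined 7935 conventional CD4 cells, and a Foxp3 UMI defined 1791 Treg cells. Another 1356 T cells met more than 1 definition and 5318 met none, and both sets stayed out of the subsets. Of genes that the definitions did not use, Cd8a had a UMI in 86.2% to 89.4% of CD8 cells by library and in at most 0.859% of conventional CD4 cells. Cells with a Cd8b1 UMI were left out of the other subsets, so this low share is partly set by the definitions. Il2ra had one in 51.2% to 55.8% of Treg cells and in 4.13% to 5.54% of conventional CD4 cells. Of 44037 distinct kept barcodes, 1067 occurred in more than 1 library. Among 363 pairs of T cells that shared a barcode across libraries, 27 had the same leading segment, where the usage shares alone would give 22.2.

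The 35 genes lie on chromosome 6 of GRCm38.p6 between 40891296 (Trbv1) and 41558371 (the end of Trbv31), in the RefSeq annotation, and the submitters name the matching build mm10. RefSeq lists 22 of them as V segments and 13 as V segment pseudogenes. Trbv31 stands apart from the rest: it lies 276 kb beyond Trbv30, whereas the other neighbouring genes are separated by a median of 5.32 kb. In the text, upstream means towards Trbv1 and downstream towards Trbv31. Trbv12-1 and Trbv12-2 on the one hand, and Trbv13-1, Trbv13-2 and Trbv13-3 on the other, are families of similar sequence. Reads could have been split between members of a family during counting, so the values of single members of these families are less certain than their sums.

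The leading segment of a cell is the Trbv gene with the most UMIs in it. By this rule 26268 of the 28881 T cells were assigned, and the others had no Trbv UMI or a tie. Of the 35 genes, 25 led at least 1 T cell, and 22 led at least 50. Those 22 comprise 21 of the genes that RefSeq lists as V segments, together with Trbv29, which RefSeq lists as a pseudogene. Trbv29 led 1005 T cells with a median of 8 UMIs per cell, the same median as for Trbv13-3 and Trbv31. The remaining RefSeq V segment, Trbv21, led 14 cells. Of the other 12 pseudogenes, Trbv22 led 6 cells and Trbv12-3 led 1. The pseudogenes Trbv6, Trbv7, Trbv8, Trbv9, Trbv11, Trbv18, Trbv25, Trbv27 and Trbv28 had no UMI in any T cell, and Trbv10 had 2 UMIs and led none. A segment leading 0 of 26268 cells could still lead up to 0.0114% of them.

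Trbv transcripts were detected in nearly all T cells and in few B cells. A Trbv UMI was present in 95.3% to 96.5% of CD8 cells, 93.4% to 95.2% of conventional CD4 cells and 91.5% to 93.9% of Treg cells by library. In B cells (Cd79a UMIs and no Cd3 UMI) of the 3 libraries that kept them the share was 0.845% to 2.91%. The depleted libraries held only 54 and 85 such B cells, of which 4 and 3 had a Trbv UMI. Median depth differed between the cell types, at 5791 to 6755.5 UMIs per CD8 cell by library and 3539 to 8174.5 per B cell. Cells with at least 2000 UMIs were then thinned to 2000 UMIs, which left out 537 T cells and 668 B cells of lower depth. The share was 82.3% to 85.0% in CD8 cells, 83.5% to 85.4% in conventional CD4 cells, 83.5% to 84.4% in Treg cells and 0.394% to 1.85% in B cells. The 3 T cell subsets thus overlapped at equal depth, and all lay far above the B cells. Among 156 T cells with at least 2 UMIs of Trdc, the constant gene of the delta chain, and none of Trac, that of the alpha chain, 62 (39.7%) had a Trbv UMI.

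**Figure D1:**
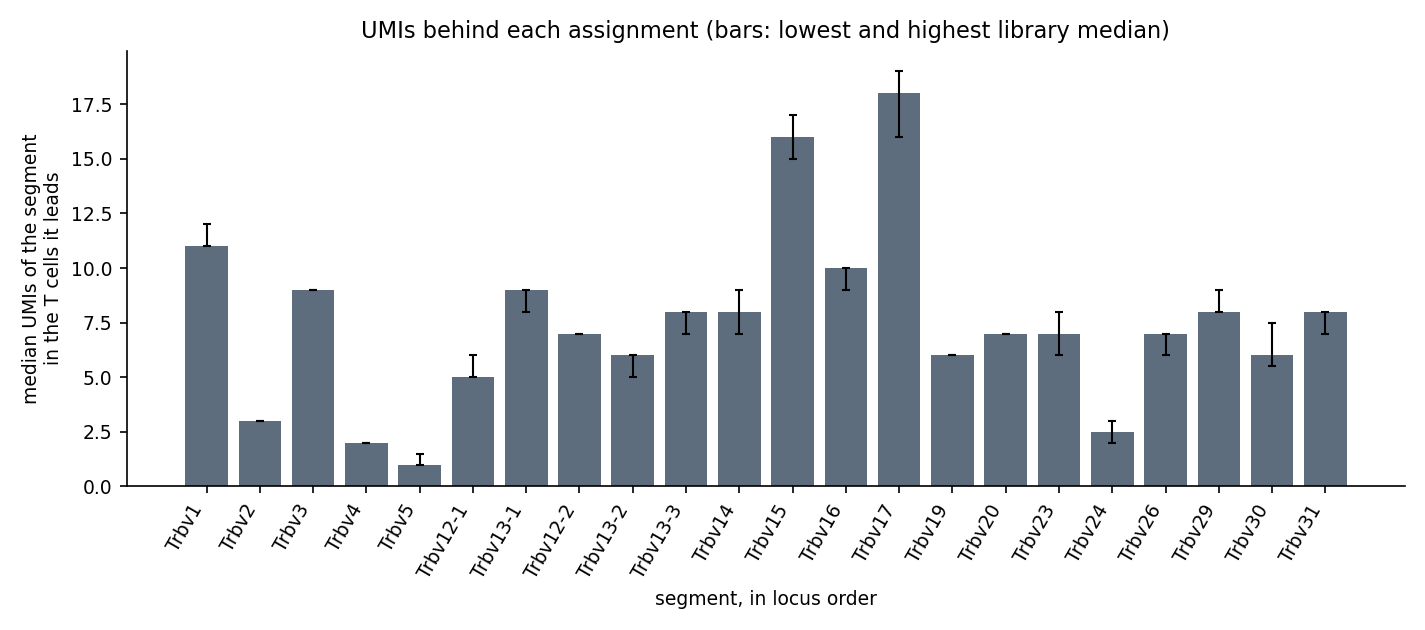
Bars give the median UMI count of each of the 22 segments in the T cells it leads, over 5 libraries, in locus order, and the thin lines span the lowest and highest library median. Trbv17 and Trbv15 are highest at 18 and 16 UMIs, and Trbv5 is lowest at 1.

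The number of UMIs behind an assignment depended strongly on the segment and little on the library. In the T cells it led, Trbv17 had a median of 18 UMIs and Trbv15 of 16, while Trbv2 had 3, Trbv24 had 2.5, Trbv4 had 2 and Trbv5 had 1. Medians of the other 16 segments lay between 5 and 11. For Trbv5 the library medians ranged from 1 to 1.5, and 64.3% of the cells it led held a single UMI of it, against 37.6% for Trbv4, 28.6% for Trbv24 and 19.4% for Trbv2. The assay counts a transcript once from its 5' end, so these are counted UMIs per cell and not per length. How evenly reads were assigned to the different segments was not tested. Cells of the low segments would more often show no UMI at the same depth, and how far this lowers the usage shares of Trbv2, Trbv4, Trbv5 and Trbv24 was not tested. Within a segment the subsets were close: Trbv5 had a median of 1 UMI and Trbv15 of 16 to 17 in each subset. The widest spreads were Trbv12-2 at 8 in CD8 cells and 5 in conventional CD4 cells, and Trbv12-1 at 6, 5 and 7.5 in CD8, conventional CD4 and Treg cells.

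Over all T cells, usage was uneven but stable between libraries. The 6 segments with the highest usage were Trbv13-2 with 10.5% ± 0.248 of assigned cells (mean ± SD, n = 5 libraries), Trbv3 with 9.44% ± 0.672, Trbv19 with 7.88% ± 0.561, Trbv13-3 with 6.85% ± 0.257, Trbv16 with 6.63% ± 0.155 and Trbv1 with 6.46% ± 0.263. Together they led 47.7% ± 1.05 of assigned T cells. Trbv13-1 followed at 6.45% ± 0.522, so that Trbv16, Trbv1 and Trbv13-1 did not differ beyond their spread. The lowest of the 22 were Trbv17 with 1.93% ± 0.201, Trbv23 with 0.834% ± 0.230, Trbv30 with 0.382% ± 0.083 and Trbv24 with 0.271% ± 0.085. Below these, Trbv21, Trbv22 and Trbv12-3 led at most 14 cells each. Across the 22 segments, Pearson's r of the usage shares between pairs of libraries was 0.953 to 0.982 in CD8 cells, 0.928 to 0.984 in conventional CD4 cells and 0.677 to 0.932 in Treg cells, whose libraries held only 219 to 452 assigned cells. Within a library, r between CD8 and conventional CD4 cells was 0.512 to 0.562. Segments are not independent replicates, and each set of shares sums to a fixed total.

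**Figure D2:**
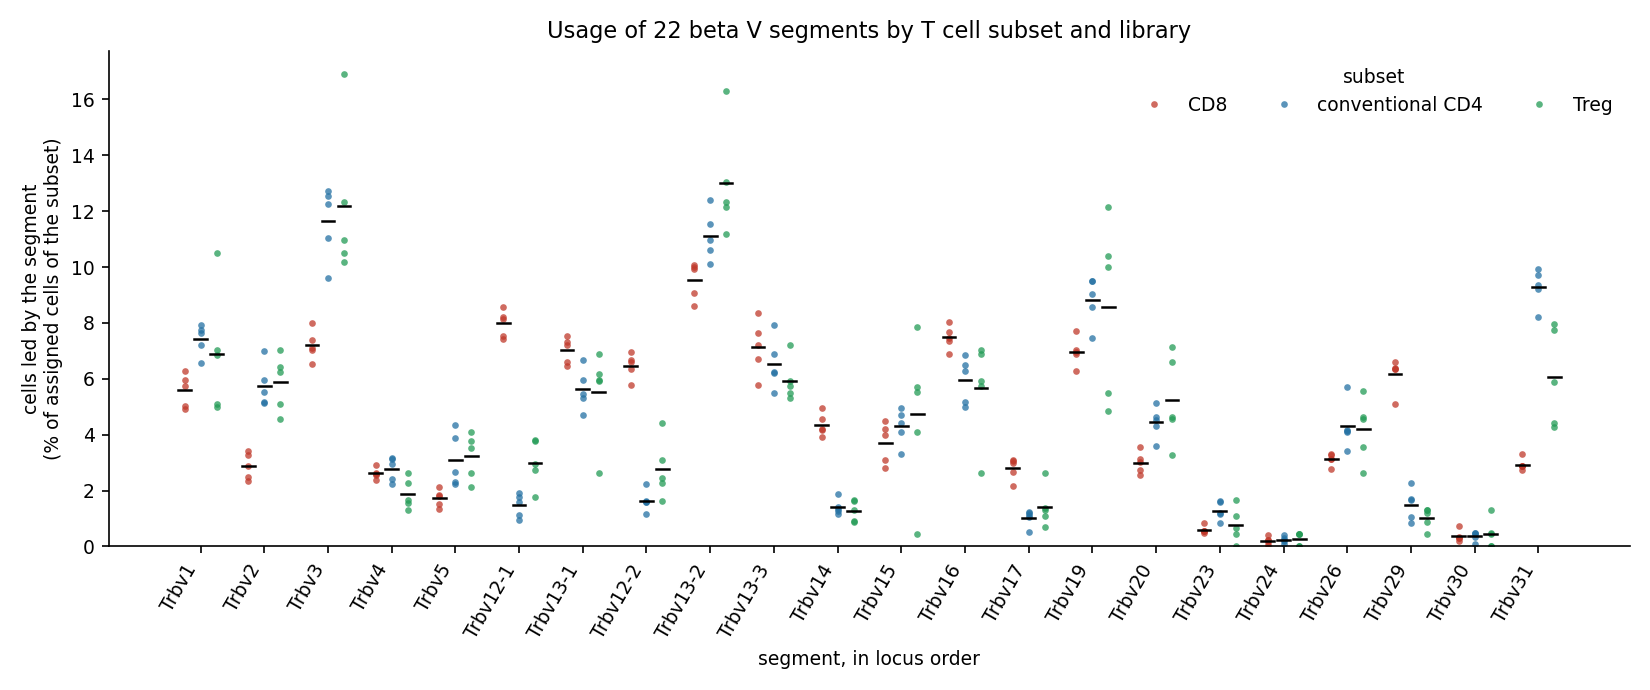
Each point is the share of assigned cells of a subset that a segment leads in 1 of the 5 libraries, with segments in locus order, and black lines are means over the libraries. The red points (CD8) of Trbv12-1, Trbv12-2, Trbv14, Trbv17 and Trbv29 lie above all blue points (conventional CD4), and those of Trbv31 lie below them.

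The first comparison asks which segments differ between CD8 and conventional CD4 cells of the same nodes. CD8 cells used Trbv12-1, Trbv12-2, Trbv29, Trbv14 and Trbv17 more, and Trbv31, Trbv2, Trbv3 and Trbv23 less. Of the 35 genes, 22 had enough UMIs to be tested on sums per library and subset with edgeR's quasi-likelihood test, and 17 were called at an adjusted p under 0.05 over all 11972 genes tested. Among all genes 44.9% were called, so calls are frequent in this contrast and a call by itself says little. The p-values rest on a spread over these 5 libraries that is estimated for the CD8, conventional CD4 and Treg sums together. The libraries also differ in treatment. Of the 17 segments, 7 were higher in CD8 cells, where the background is 22.8%, and 10 were lower, where it is 22.1%. The median log2 fold change of the 22 was -0.28, beside 0.00 over all genes tested. Counting assigned cells instead of UMIs, 7 segments had a higher share and 10 a lower share in CD8 cells in all 5 libraries. The ranges of the 2 subsets did not overlap for 6 of the first and 8 of the second.

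Trbv12-1 had the largest difference of all segments. In library order it led 7.54%, 8.15%, 7.43%, 8.58% and 8.20% of CD8 cells. In conventional CD4 cells of the same libraries it led 0.943%, 1.90%, 1.11%, 1.60% and 1.78%. Every CD8 value was thus above every conventional CD4 value, and Trbv12-1 ranked 2 among segments in CD8 cells and 17 in conventional CD4 cells. The log2 fold change of its UMIs was 2.10 (SE 0.0898, edgeR adjusted p = 3.6e-14), which is 4.28-fold. Its neighbour Trbv12-2 led 5.79% to 6.95% of CD8 cells and 1.16% to 2.22% of conventional CD4 cells, with a log2 fold change of 1.47 (SE 0.104, edgeR adjusted p = 1.6e-10). The sum over both was 14.4% ± 0.706 in CD8 cells and 3.11% ± 0.559 in conventional CD4 cells (SD, n = 5 libraries). A cell led by either gene counts in this sum. Cells with a tie between them are left out, so a split of reads could still change it. The 3 Trbv13 genes lie interleaved with them on the chromosome, and their summed usage did not differ beyond its spread, at 23.7% ± 1.10 and 23.3% ± 2.04.

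Trbv29, the listed pseudogene, was also a segment of CD8 cells. It led 5.08%, 6.60%, 6.35%, 6.402% and 6.34% of CD8 cells in library order. In conventional CD4 cells it led 1.04%, 1.69%, 0.857%, 1.65% and 2.27%, again with no overlap. Its log2 fold change was 1.84 (SE 0.143, edgeR adjusted p = 7.4e-10). Trbv14 led 3.92% to 4.97% of CD8 cells against 1.16% to 1.89% of conventional CD4 cells (log2 fold change 1.29, SE 0.114). Trbv17 led 2.17% to 3.11% against 0.529% to 1.23% (1.24, SE 0.121). Trbv16 and Trbv13-1 were called with small differences of 0.45 and 0.22 on the log2 scale. Both calls were lost when single libraries were left out. Without the depleted anti-CTLA-4 library Trbv16 had a log2 fold change of 0.36 (edgeR adjusted p = 0.071). Trbv13-1 had 0.18 without anti-CTLA-4 (adjusted p = 0.097) and 0.15 without depleted isotype (adjusted p = 0.17).

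In the other direction Trbv31 differed most. It led 2.74%, 2.86%, 2.87%, 3.30% and 2.89% of CD8 cells in library order, and 9.34%, 9.20%, 9.94%, 8.23% and 9.72% of conventional CD4 cells. It thus ranked 3 in conventional CD4 cells and 15 in CD8 cells, with no overlap. Its UMIs were 3.06-fold lower in CD8 cells (log2 fold change -1.61, SE 0.0866, edgeR adjusted p = 1.6e-12). Trbv2 led 2.36% to 3.43% of CD8 cells against 5.14% to 6.98% of conventional CD4 cells (log2 fold change -1.19, SE 0.0970). Trbv3, the most used segment of conventional CD4 cells, led 6.53% to 8.00% against 9.62% to 12.7% (-0.89, SE 0.0588). The rarer Trbv23 (-1.24, SE 0.278) and Trbv5 (-0.85, SE 0.126) were lower too, and so was Trbv20 (-0.79, SE 0.130). Trbv1, Trbv19, Trbv26 and Trbv13-2 were called lower with log2 fold changes of -0.53, -0.53, -0.50 and -0.26. By DESeq2, Trbv19 (adjusted p = 0.18), Trbv23 (0.17) and Trbv26 (0.17) were not called, nor were Trbv16 (0.33) and Trbv13-1 (0.26).

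Trbv4, Trbv13-3, Trbv15, Trbv24 and Trbv30 were tested and not called, with log2 fold changes of -0.30, 0.11, -0.21, -0.18 and -0.50. The SE was 0.144 for Trbv4, 0.0691 for Trbv13-3, 0.200 for Trbv15, 0.114 for Trbv24 and 0.449 for Trbv30. Differences of the size seen for Trbv16 could thus have been missed for Trbv4 and Trbv15, and larger ones for Trbv30. Without the isotype library Trbv4 (-0.35, edgeR adjusted p = 0.034), Trbv13-3 (0.18, 0.017) and Trbv30 (-0.91, 0.019) were called. In locus order, the segments higher in CD8 cells all lay between Trbv12-1 and Trbv17, except Trbv29. Within that stretch Trbv13-2 was lower and Trbv13-3 and Trbv15 were not called. Upstream of it Trbv1, Trbv2, Trbv3 and Trbv5 were lower and Trbv4 was not called, and downstream of it Trbv29 alone was higher. Position was not tested.

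CD8 cells spread over more segments than conventional CD4 cells. The effective number of segments is the inverse of the chance that 2 cells share a segment, and it equals the number of segments if all are used equally. It was 16.4, 16.4, 16.0, 16.4 and 16.3 in CD8 cells in library order. In conventional CD4 cells it was 14.1, 14.1, 13.7, 14.1 and 13.9. The difference was 2.33 (SD 0.0457, n = 5), with CD8 higher in 5 of 5 libraries, and an exact two-sided permutation test of its sign gave p = 0.0625, the smallest that 5 libraries allow. Treg cells had 13.3 ± 0.901, a difference from conventional CD4 cells of -0.669 (SD 0.875), and were higher in 2 of 5 libraries (exact permutation p = 0.25). Few Treg cells per library lower this number: corrected for the count of cells, it was 13.2 to 14.96 in Treg cells and 13.8 to 14.3 in conventional CD4 cells, which overlap.

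**Figure D3:**
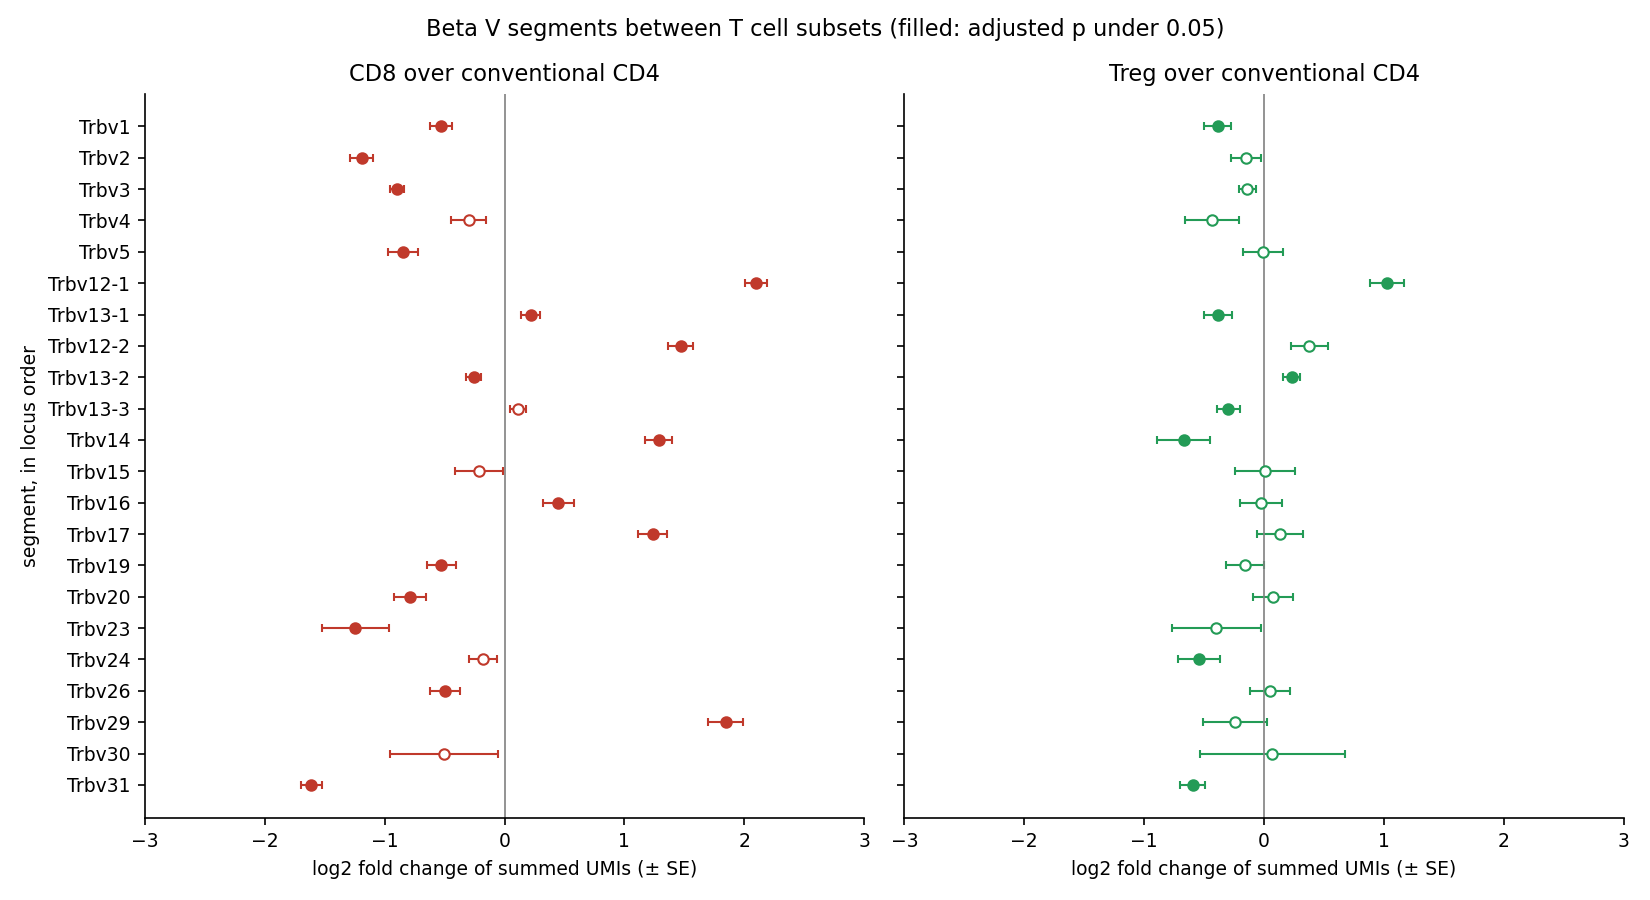
Points are log2 fold changes of summed UMIs from edgeR with standard errors, for CD8 over conventional CD4 cells (left) and Treg over conventional CD4 cells (right), with segments in locus order and filled points for adjusted p under 0.05. On the left the values run from -1.61 (Trbv31) to 2.10 (Trbv12-1), and on the right from -0.67 (Trbv14) to 1.03 (Trbv12-1).

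In usage shares, Treg cells were closer to conventional CD4 cells than CD8 cells were. Of the 22 segments tested 8 were called between Treg and conventional CD4 cells by edgeR: 2 were higher in Treg cells (background 21%) and 6 lower (background 19.6%). Among all genes 40.6% were called, so this count is near the background and says little by itself. Treg sums held 1389184 to 3284894 UMIs against 6221182 to 13905695 in conventional CD4 cells. The count therefore cannot be set directly against the 17 of the CD8 contrast. At an unadjusted p under 0.05 the number was 9. The fit shares its estimate of the spread between the subsets, while usage in Treg cells varied more between libraries. Pairs of libraries had r of 0.677 to 0.932 in Treg cells against 0.928 to 0.984 in conventional CD4 cells. The p-values of Treg cells may therefore be too small. The median log2 fold change of the 22 was -0.15, beside -0.02 over all genes. Within a library, r of the usage shares between Treg and conventional CD4 cells across the 22 segments was 0.760 to 0.955. It was 0.512 to 0.562 between CD8 and conventional CD4 cells. By share of cells, only Trbv31 had ranges that did not overlap.

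Trbv12-1 was higher in Treg cells, at 2.74%, 1.76%, 2.95%, 3.81% and 3.76% of them in library order. These are above the conventional CD4 share of the same library except in isotype, and below every CD8 value. The log2 fold change over conventional CD4 cells was 1.03 (SE 0.139, edgeR adjusted p = 3.7e-06). Together Trbv12-1 and Trbv12-2 led 5.78% ± 0.946 of Treg cells (SD, n = 5), between the 3.11% of conventional CD4 and the 14.4% of CD8 cells. Trbv12-2 alone was not called (0.38, SE 0.154, edgeR adjusted p = 0.056). Of the other segments high in CD8 cells, Trbv14 had fewer UMIs in Treg than in conventional CD4 cells (-0.67, SE 0.220, edgeR adjusted p = 0.019), while Trbv29 (-0.24, SE 0.267) and Trbv17 (0.13, SE 0.191) were not called. By share of cells Trbv14 differed by less than its spread, at 1.29% ± 0.378 of Treg and 1.41% ± 0.281 of conventional CD4 cells (SD, n = 5), and Treg cells were higher in 2 of 5 libraries. In the isotype library conventional CD4 cells held 311 UMIs of Trbv14, although it led only 11 of them. Without that library its log2 fold change was -0.44 (edgeR adjusted p = 0.017), and without doublet removal it was -0.27 (adjusted p = 0.33). The CD8 gene Cd8a had a UMI in 0% to 1.49% of Treg cells, from which cells with a Cd8b1 UMI had been left out. Nkg7, a gene of cytotoxic granules, had one in 9.06% to 14.1% of Treg, 2.34% to 3.90% of conventional CD4 and 86.1% to 87.8% of CD8 cells. Only 52.4% to 61.8% of Treg cells had a Cd4 UMI. Trbv12-1 led 39 of 957 assigned Treg cells with a Cd4 UMI and 13 of 666 without one, and with the Cd4 UMI required its log2 fold change was 1.28 (edgeR adjusted p = 3.2e-07).

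Trbv31 was lower in Treg cells, at 7.76%, 4.41%, 5.90%, 4.29% and 7.96% in library order, against 8.23% to 9.94% in conventional CD4 cells. Its log2 fold change was -0.59 (SE 0.106, edgeR adjusted p = 0.00011), so it lay between CD8 and conventional CD4 cells as Trbv12-1 did. Of the remaining calls on UMIs, Trbv13-2 was higher by 0.23 on the log2 scale, and Trbv24, Trbv1, Trbv13-1 and Trbv13-3 were lower, at -0.54, -0.39, -0.39 and -0.30. By share of cells Trbv13-2 was higher in Treg cells in 5 of 5 libraries (ratio of mean shares 1.17), and so was Trbv12-2 (1.69), which was not called on UMIs. The shares of the 4 lower ones showed less difference: the ratio was 1.09 for Trbv24 and 0.981 for Trbv13-1, both higher in Treg cells in 3 of 5 libraries, 0.930 for Trbv1 (higher in 2 of 5) and 0.906 for Trbv13-3 (higher in 1 of 5). Of the 8 calls, only those of Trbv12-1 and Trbv31 held under each of the 14 alternatives run. When libraries were left out in turn, Trbv1 lost its call in edgeR without either depleted library (-0.28 and -0.32, adjusted p = 0.10 and 0.056). Trbv24 lost it without depleted isotype (-0.39, 0.15) or saline control (-0.47, 0.072), and Trbv13-2 without isotype (0.13, 0.15) or saline control (0.21, 0.050). Trbv14 lost it without anti-CTLA-4 (-0.65, 0.053) and Trbv13-1 without saline control (-0.28, 0.060), while Trbv13-3 lost it without either depleted library (-0.28 and -0.27, 0.061 and 0.065). Other segments gained a call: Trbv12-2 without saline control (0.43, 0.043) or depleted isotype (0.49, 0.036), Trbv3 without saline control (-0.23, 0.0075) and Trbv4 without isotype (-0.71, 0.0100). Trbv29 was called lower without anti-CTLA-4 (-0.74, 0.0087) and Trbv23 without depleted isotype (-1.40, 0.0050).

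Between conditions, more segments passed 1.5-fold in Treg than in CD8 cells, but the Treg values also rest on far fewer cells. With 1 library per group there is no test, and the ratio of the usage shares of 2 libraries is given with a 95% interval for counting error only. A pair of a segment and a subset was considered where it held at least 20 cells over both libraries. Over the 5 comparisons 263 such pairs were considered and 33 had a ratio past 1.5-fold in either direction. The interval left out a ratio of 1 in 22 pairs (8.37%), where intervals of this level miss a true ratio of 1 in about 5% of pairs. Past 1.5-fold were 7 of 49 pairs for isotype over saline control, 12 of 50 for anti-CTLA-4 over isotype, 6 of 55 for depleted isotype over isotype, 5 of 54 for depleted anti-CTLA-4 over anti-CTLA-4, and 3 of 55 for depleted anti-CTLA-4 over depleted isotype. The corresponding shares over all genes, measured as the share of cells with a UMI, were 7.2%, 7.35%, 9.17%, 10.8% and 5.8%. Measured like all genes, the Trbv genes gave 7 of 56 (12.5%), 10 of 59 (16.9%), 7 of 61 (11.5%), 7 of 60 (11.7%) and 3 of 64 (4.69%). By subset, 3 of 100 pairs passed 1.5-fold in CD8 cells, 13 of 98 in conventional CD4 cells and 17 of 65 in Treg cells. The interval left out 1 in 5, 7 and 10 of these pairs. For anti-CTLA-4 over isotype, 6 of 12 Treg pairs passed 1.5-fold and the intervals of 4 left out 1. The shares over all genes given above pool the 3 subsets, so the counts by subset have no background of their own. Whether all genes also passed 1.5-fold more often in Treg cells is not shown. Treg pairs rest on the fewest cells, with medians of 27 to 50 per pair by comparison against 165 to 318 in CD8 cells. The comparisons share libraries, so these counts are not independent.

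**Figure D4:**
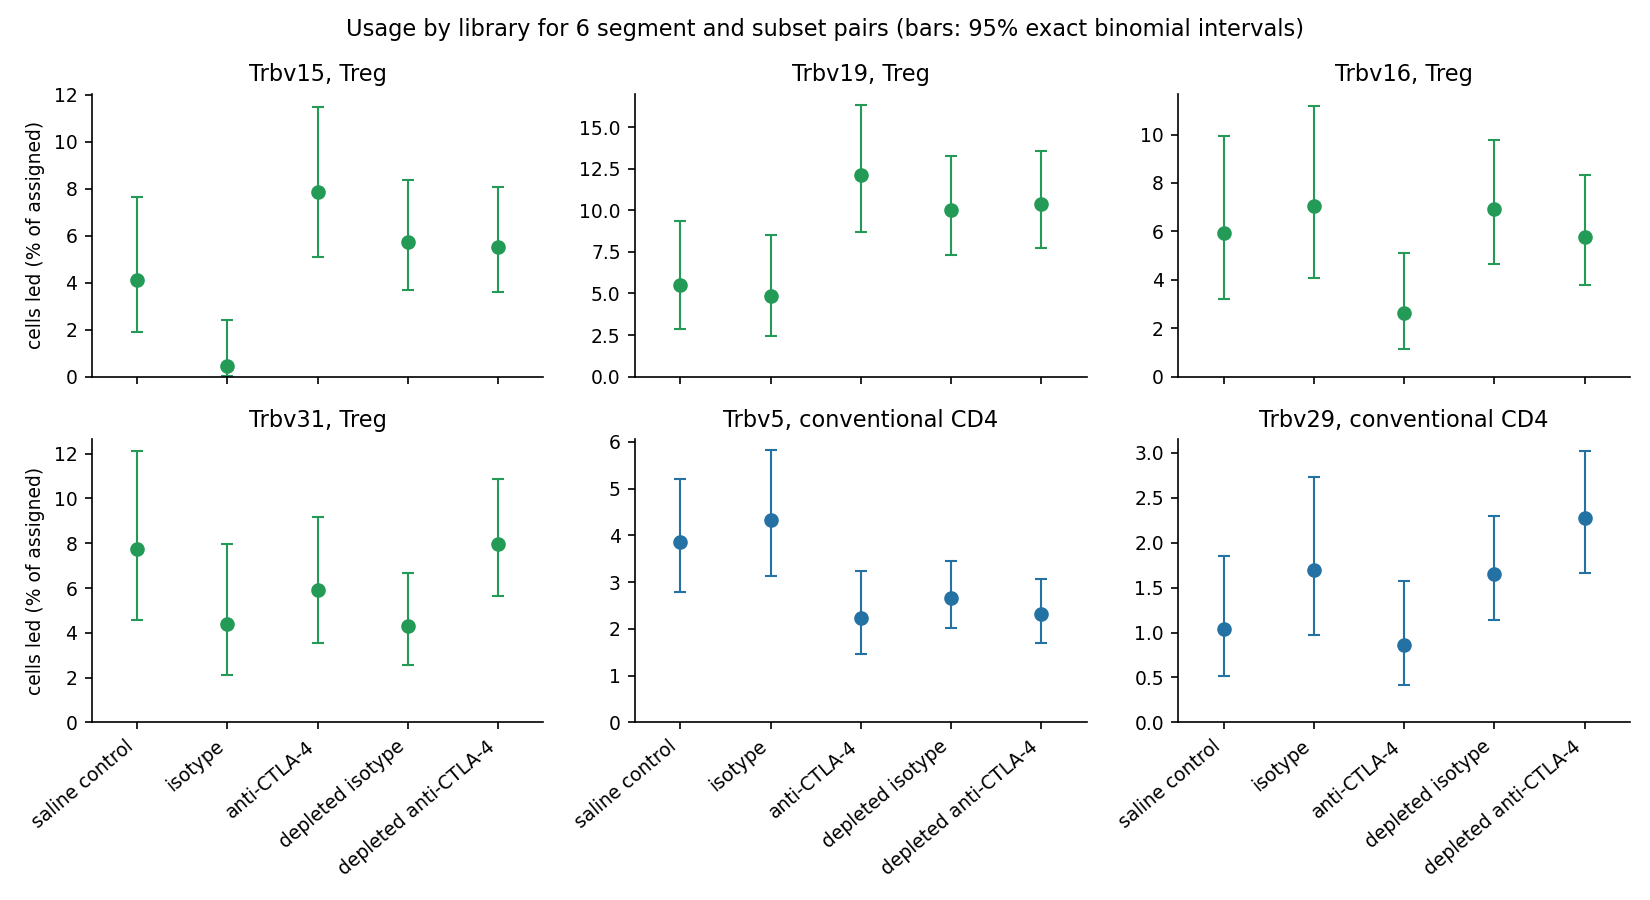
Points are the share of assigned cells led by a segment in each of the 5 libraries, for 4 segments in Treg cells and 2 in conventional CD4 cells, with 95% exact (Clopper-Pearson) binomial intervals for counting error. Trbv15 in Treg cells is at 0.441% in the isotype library and at 4.11% to 7.87% in the others.

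Pairs were ranked by the interval bound nearest 1, so a pair of few cells with a wide interval can rank low although its ratio is far from 1. The ratios farthest from 1 came from Treg cells of the isotype library. Trbv15 led 9 of 219 Treg cells in saline control (4.11%), 1 of 227 in isotype (0.441%), 24 of 305 in anti-CTLA-4 (7.87%), 24 of 420 in depleted isotype (5.71%) and 25 of 452 in depleted anti-CTLA-4 (5.53%). The isotype library was thus the low one, and the ratio of anti-CTLA-4 over isotype of 17.9 (95% interval 2.43 to 131) rests on that single cell. The ratio of depleted isotype over isotype was 12.97 (1.77 to 95.3), and both comparisons share the isotype library. In CD8 cells of isotype, Trbv15 led 4.48%, the highest of the 5 libraries. Trbv19 led 5.48%, 4.85%, 12.1%, 10.0% and 10.4% of Treg cells in library order, so saline control and isotype were both low. Its ratio was 2.50 (1.31 to 4.80) for anti-CTLA-4 over isotype and 2.06 (1.08 to 3.93) for depleted isotype over isotype. Trbv16 led 7.05% of Treg cells in isotype and 2.62% in anti-CTLA-4 (ratio 0.372, 0.162 to 0.854), and the other 3 libraries had 5.75% to 6.90%.

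In conventional CD4 cells, Trbv5 led 3.87%, 4.33%, 2.23%, 2.66% and 2.32% in library order. The ratio was 0.514 (0.317 to 0.834) for anti-CTLA-4 over isotype and 0.614 (0.413 to 0.914) for depleted isotype over isotype. Trbv5 is the segment read from a median of 1 UMI per cell. After depletion under anti-CTLA-4, Trbv29 led 2.27% of conventional CD4 cells against 0.857% without depletion (ratio 2.65, 1.34 to 5.23), Trbv13-1 led 5.97% against 2.62% of Treg cells (2.28, 1.05 to 4.95) and Trbv1 led 5.09% against 10.5% of Treg cells (0.485, 0.290 to 0.812). Trbv16 led 4.99% of conventional CD4 cells there against 6.86% (0.727, 0.547 to 0.966). In CD8 cells of depleted isotype, Trbv30 led 0.320% against 0.747% in isotype (0.429, 0.186 to 0.990).

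In the other 2 comparisons ratios ran from 0.527 to 2.02 for isotype over saline control and from 0.650 to 1.86 for depleted anti-CTLA-4 over depleted isotype. Isotype over saline control compares glioma and a control IgG with buffer and no named antibody, so tumour and IgG cannot be told apart. In this comparison the intervals of 2 pairs left out 1, both lower: Trbv3 in conventional CD4 cells (9.62% against 12.7%, ratio 0.755, 0.588 to 0.971) and Trbv13-3 in CD8 cells (5.79% against 7.65%, 0.756, 0.586 to 0.977). Of the higher pairs, whose intervals all include 1, Trbv29 in CD8 cells (1.30, 0.987 to 1.71) and Trbv15 in conventional CD4 cells (1.505, 0.980 to 2.31) had the lower bounds nearest 1. The lowest and highest ratios were those of Trbv23 (0.527, 0.229 to 1.22) and Trbv12-1 (2.02, 0.936 to 4.35) in conventional CD4 cells. Among depleted libraries, the intervals of anti-CTLA-4 over isotype left out 1 for Trbv31 in Treg cells (7.96% against 4.29%, ratio 1.86, 1.07 to 3.22) and for Trbv15 in CD8 cells (3.08% against 4.19%, 0.734, 0.568 to 0.948). Trbv13-2 (1.17, 0.985 to 1.39) and Trbv16 (0.792, 0.615 to 1.02) in conventional CD4 cells came next by the bound nearest 1. The lowest ratio was that of Trbv20 in Treg cells (4.65% against 7.14%, 0.650, 0.378 to 1.12), whose interval includes 1. No segment and subset pair passed 1.5-fold in opposite directions under anti-CTLA-4 with and without depletion.

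Some T cells held 2 segments. At least 2 UMIs of each of at least 2 Trbv genes were found in 15.8% to 17.2% of CD8 cells, 13.3% to 18.0% of conventional CD4 cells and 9.45% to 17.0% of Treg cells by library. Cells with 2 segments were deeper, with medians of 6569 to 7562.5 UMIs against 5656.5 to 6627.5 for other CD8 cells. Without doublet removal the share in CD8 cells was 16.6% to 18.5%. In 3062 cells exactly 2 segments reached 2 UMIs, and which segment came second was uneven. Trbv13-2 was second in 591 of them (19.3%) and Trbv12-2 in 345 (11.3%), and no other segment passed 6.34% (Trbv31). Trbv24 was second in 180 cells although it led only 47 cells of the 3 subsets. Of all T cells with a UMI of a segment, that segment led 69.1% for Trbv12-1 and 80.7% for Trbv13-3, but 44.8% for Trbv13-2, 29.1% for Trbv12-2 and 9.59% for Trbv24.

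**Figure D5:**
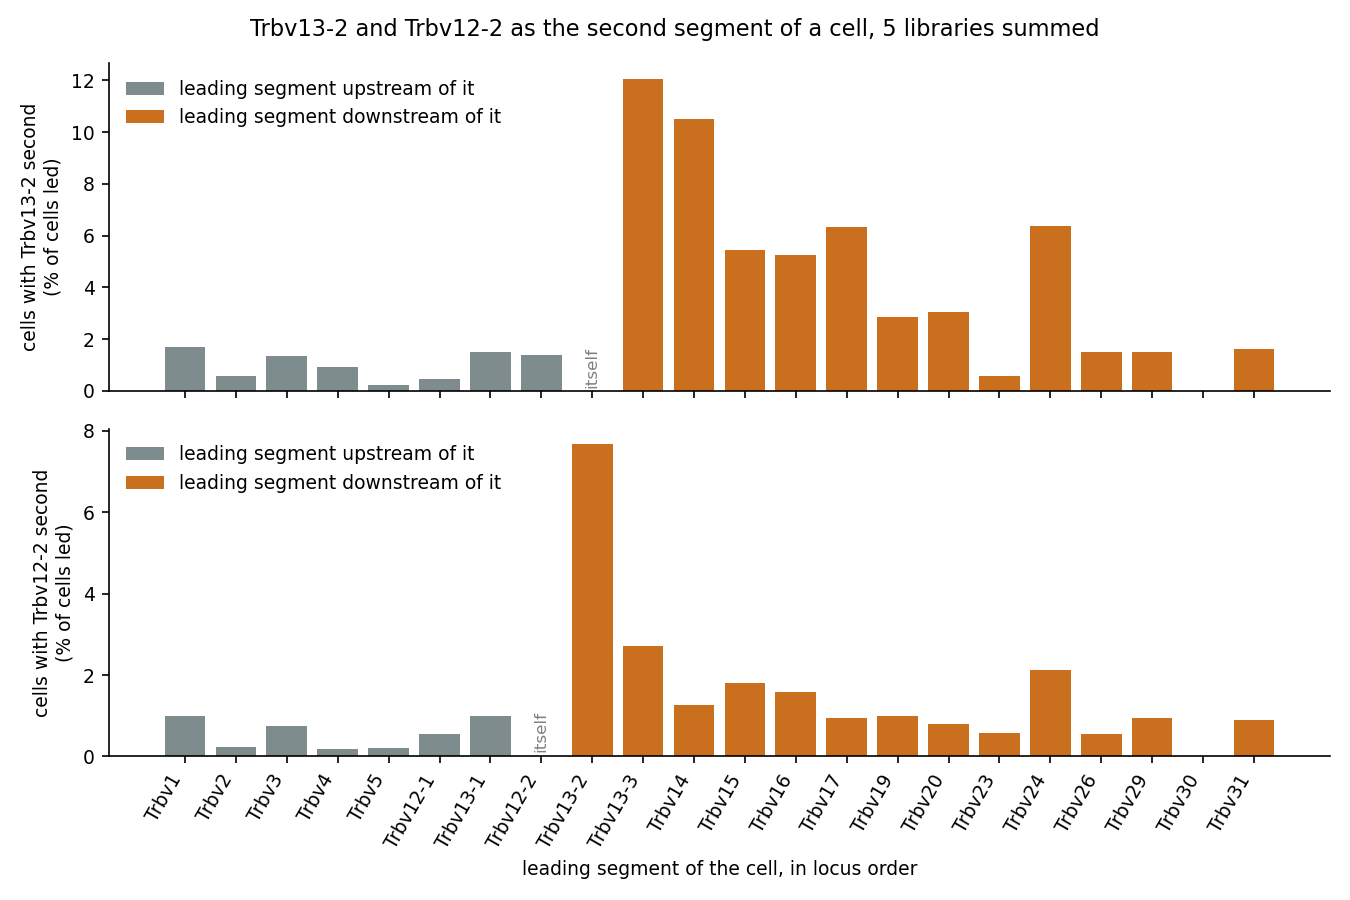
Bars give, for cells led by each segment in locus order, the percentage in which Trbv13-2 (top) or Trbv12-2 (bottom) was the only other segment with at least 2 UMIs, over 3 subsets and 5 libraries. Bars to the right of the segment itself are higher near it, at 12.1% for Trbv13-3 and 10.5% for Trbv14 in the top panel, than bars to its left.

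For Trbv13-2 and Trbv12-2 this depended on where the leading segment lies. Trbv13-2 came second in 12.1% of cells led by Trbv13-3, its next neighbour downstream, and in 10.5% of those led by Trbv14, 5.45% by Trbv15, 5.24% by Trbv16 and 6.34% by Trbv17. It came second in 2.86% of cells led by Trbv19, 3.07% by Trbv20 and 1.62% by Trbv31. When the leading segment lies upstream of Trbv13-2, the values were 0.217% (Trbv5) to 1.68% (Trbv1), with 1.39% for its next neighbour Trbv12-2. Over all segments, Trbv13-2 was second in 495 of 10030 cells led from downstream (4.94%) and in 96 of 8385 led from upstream (1.14%). Trbv12-2 was second in 295 of 12142 (2.43%) and in 50 of 7453 (0.671%), and in 7.67% of cells led by Trbv13-2. Both were second more often in cells led from downstream in all 5 libraries.

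No other segment showed this in all 5 libraries, though some leaned the same way. Of 20 segments with others on both sides, 14 were second more often in cells led from downstream and 6 in cells led from upstream. In all 5 libraries the first held for Trbv13-2 and Trbv12-2 only, and in 4 of 5 for Trbv5, Trbv15, Trbv19 and Trbv24. Segments that came second in few cells, such as Trbv5 with 34, could hardly show it in each library. Trbv13-1, a family member of Trbv13-2, was second in 0.734% of cells led from downstream and 0.766% from upstream. Counting next neighbours only, the upstream neighbour was second in 417 cells and the downstream one in 110. Without the pairs that include Trbv13-2 these were 86 and 84. By library, Trbv13-2 was second in 8.92% to 15.4% of cells led by Trbv13-3, while the reverse was found in 0.182% to 1.39% of cells led by Trbv13-2. In the cells led by Trbv13-3 with Trbv13-2 second, the medians were 10 and 2 UMIs. Trbv13-3 and Trbv13-2 belong to 1 family, so how their reads were divided is uncertain, while Trbv14 and Trbv15 do not belong to it. The part of depth and of reads shared between genes in this pattern was not tested.

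Usage was also compared in T cells in cycle and in T cells with a marker of innate-like cells. In T cells with a UMI of Mki67 or Top2a, both genes of dividing cells, 1627 were assigned, and Trbv13-2 led 11.3% of them against 10.4% of the others. Trbv17 led 0.983% (95% interval 0.563 to 1.59) against 2.01% (1.84 to 2.196), and Trbv30 led 0.922% (0.517 to 1.52) against 0.329% (0.261 to 0.408). These rest on 16 and 15 cells with a UMI of Mki67 or Top2a. By library, Top2a had a UMI in 7.14% to 10.5% of Treg cells and 4.18% to 4.95% of CD8 cells. The part of this uneven mix of subsets was not tested. Only 1 T cell was led by Trav11 or Trav11d, the alpha segment of invariant natural killer T cells, so their usage cannot be described. Of 172 T cells with a UMI of Zbtb16, the factor of innate-like T cells, 121 had a Trbv UMI. Among the 119 assigned, Trbv13-2 led 17.6% (11.3 to 25.7), Trbv13-3 led 13.4% (7.88 to 20.9) and Trbv29 led 7.56% (3.52 to 13.9). Over all T cells these segments led 10.5%, 6.85% and 3.81%, so the intervals of Trbv13-2 and Trbv13-3 lay above the share in all T cells and that of Trbv29 included it. Trbv3 led 3.36% (0.923 to 8.38) against 9.44% of all T cells. For the other segments seen in these cells the interval included the share in all T cells. These intervals are exact binomial ones, and the cells come from 5 libraries added together. They cover counting error only, with cells and not libraries as the unit. The segments named were picked from all those seen, and intervals of this level miss the true value in about 5% of cases.

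Genes that build the receptor or pass on its signal were counted in the same 2 contrasts. Of 12 genes of receptor chains and their assembly, 7 could be tested, and edgeR called 2 higher and 2 lower in CD8 than in conventional CD4 cells. The beta constant gene Trbc1 was higher by 0.20 on the log2 scale (SE 0.0532) and Trbc2 was not called (-0.06), while the alpha constant gene Trac (-0.26) and Cd247, the zeta chain that passes on the signal, were lower (-0.41). Trdc was higher by 0.96 (SE 0.201) at low counts. In Treg cells none was higher and 3 were lower, namely Trac (-0.21), Cd247 (-0.49) and Dntt (-2.15), the enzyme that adds bases at the joints. The recombinase genes Rag1 and Rag2, which act in the thymus, had 4 and 0 UMIs in the sums of the 3 subsets, and Ptcra, the partner of the beta chain in thymocytes, had 8. Of 14 genes of proximal receptor signalling, all tested, 2 were higher and 8 lower in CD8 cells, among them the inhibitory receptor Cd5 (-1.01) and Themis, a signalling regulator of thymocytes (0.42). In Treg cells 2 were higher and 5 lower, among them Themis (-1.85) and the adaptor Lat (-0.46). Each count stands beside the shares of all genes called higher and lower, 22.8% and 22.1% for CD8 and 21% and 19.6% for Treg cells.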

How the data were processed

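Single-cell 5' expression libraries of lymph node cells were read from the deposited matrices of UMI counts per gene and barcode. Per the file headers these counts were made by the authors with Cell Ranger 7.0.1, and the submitters' processing notes also name bcl2fastq 2.20.0 and build mm10. The deposited B cell receptor files were not used. Barcodes with at least 500 genes and at most 10% mitochondrial UMIs were kept, and those with the highest Scrublet scores (scanpy 1.11.5) were removed at 0.8% per 1000 barcodes. UMIs were summed per library and subset and tested with edgeR 4.0.16 (R 4.3.3; quasi-likelihood, TMM, library as a block, all 3 subsets in 1 fit, Benjamini-Hochberg over all genes, threshold 0.05). The SE given with an edgeR log2 fold change is its absolute value divided by the square root of the F statistic of its test. DESeq2 1.42.0 was an alternative. Simulated counts with known changes gave back 82.1% of 1.5-fold and 100% of 2-fold changes among 11972 genes in the CD8 contrast. They were drawn with the spread estimated by the fit itself, and changes were placed only in genes with a mean count over 10. No change was simulated between Treg and conventional CD4 cells. Shares have exact binomial intervals, and intervals and limits cover counting error only. Named segments were the 6 highest and 4 lowest in usage, those with no cell, those called between subsets (at most 6 per direction with the largest fold), and the 2 highest and 2 lowest pairs per comparison of conditions by the bound nearest 1; others named, and the direction of second segments, were chosen after their values were seen. The members and gene lists were chosen with earlier results of these data known. Positions come from RefSeq on GRCm38.p6.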

Additional observations from a re-analysis of the deposited data

Results flagged for a closer look

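In 4 of 44 sets of 5 within-library differences in usage share, 1 library stood far from the other 4, and it was the isotype library each time; chance marks about 1 set in 20. For Trbv20, CD8 minus conventional CD4 was -0.0471 percentage points there (3.55% and 3.59%), against -2.02 to -1.50 elsewhere. For Trbv30 the same difference was 0.64 points (0.747% and 0.106%), against -0.16 to -0.12. For Trbv12-1, Treg minus conventional CD4 was -0.14 points (1.76% and 1.90%), against 1.80 to 2.21. For Trbv17 it was 2.11 points (2.64% and 0.529%), against -0.50 to 0.20, and rests on 6 Treg cells and 5 conventional CD4 cells. Low counts also stand behind Trbv30 and Trbv12-1. In the isotype library Trbv30 led 12 CD8 cells and had 4 UMIs in conventional CD4 cells, and Trbv12-1 had 37 UMIs in Treg cells.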

How the results depend on the processing

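The count of segments called between Treg and conventional CD4 cells, 8, depended on the processing: it was 15 with no filter on low counts, 5 (4 of them shared) when scaled to the sum of Trbv UMIs, 4 without doublet removal and 4 without cell filters, and 6 to 8 when libraries were left out in turn. The cause was not tested. The count for CD8 cells, 17, was 12 by DESeq2, 16 without the library as replicate block, 22 with no filter and 16 to 21 with a library left out; 12 of the 17 calls held under each of 14 alternatives and none changed direction. The difference in effective number between CD8 and conventional CD4 cells stayed between 2.29 and 2.47 over all alternatives. Requiring a Cd4 UMI of Treg cells was chosen after seeing the data and gave 9 calls, 7 shared. Counts of condition pairs past 1.5-fold stayed within 1.5 times their value. Few Treg cells per library limit the shares of rare segments.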
